A study of Mus musculus with 8 samples.

Results

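The 10 genes described here encode matricellular and adhesive glycoproteins of the extracellular matrix (ECM). They are Fn1, Tinagl1, Thbs1, Thbs2, Thbs3, Tnc, Postn, Sparc, Spp1 and Angptl2, and they were taken by gene symbol from the deposited count table, in which they make up 10 of 55367 genes. Of these, 9 had enough counts to be tested, and Spp1 did not.

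Matricellular proteins are secreted into the ECM but are not its main load-bearing fibers. They bind collagens, fibronectin, growth factors and cell-surface receptors such as integrins, syndecans and CD47, and they are known for adjusting how firmly a cell adheres and how new matrix is assembled. Fibroblastic reticular cells (FRC) are the fibroblasts of the lymph node, where they build and ensheath the reticular fibers of the conduit network.

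RNA was measured in 8 libraries of 1 FRC line derived from lymph nodes of p53ER/ER C57BL/6 mice, with 2 libraries per condition. All cells were kept for 4 days in RPMI-based medium with 2% FBS and penicillin-streptomycin, renewed after 48 hours. The vehicle medium was unconditioned RPMI with water, the lactic acid (LA) medium was unconditioned RPMI with LA at 15 mmol/L, control conditioned medium (CCM) was RPMI conditioned by the FRC line itself, and tumor-conditioned medium (TCM) was RPMI conditioned by B16.F10 cells, a mouse melanoma line. TCM was compared with CCM and LA with vehicle, which are pairs without a shared library, to ask how the FRCs responded to tumor-derived factors and to LA. A single cell line limits the model. Although the study names the replicates biological, the labels do not say whether they were separate cultures. P values therefore measure the spread between these libraries only, pooled over the 4 conditions. The replicates disagreed most in TCM, with a chi-square per degree of freedom over the tested genes of 19.8. It was 4.82 in vehicle, 3.28 in CCM and 7.32 in LA, so the pooled spread does not describe each condition equally well.

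Total counts per library ranged from 8232889 to 14107964, at which 3 counts, taken as the floor of detection, equaled 0.212 to 0.355 counts per 1000000 counts of the library (CPM). Of 10 FRC or fibroblast markers, Pdpn (114 to 187 CPM), Vcam1 (136 to 215 CPM) and Pdgfrb (267 to 509 CPM) were present in every library. Pdgfra (46.6 to 67.2 CPM) and Col1a1 (12572 to 17235 CPM) were present as well, but Col1a2 was far below Col1a1 at 6.37 to 15.2 CPM. The FRC chemokines Ccl19 and Ccl21a had at most 1 and 0 counts. Thy1 stayed between 0.0925 and 1.75 CPM and Il7 between 0.559 and 1.83 CPM. The leukocyte markers Ptprc, Cd3e and Itgam had 0 counts, and the summed level of the leukocyte markers, most of it Lyz2, was 13.5 to 17.3 CPM in vehicle, 15.0 to 15.7 CPM in CCM, 9.70 to 10.7 CPM in LA and 13.8 to 22.9 CPM in TCM. The 7 melanocyte or melanoma markers summed to 2.23 to 3.42 CPM in vehicle, 1.82 to 3.04 CPM in CCM, 3.60 to 3.67 CPM in LA and 2.29 to 2.63 CPM in TCM. Tyr had 0 counts and Mlana, Dct and Sox10 at most 1 count in every library, whereas Tyrp1 had 6 and 3 counts in the TCM libraries and 0 in the other 6. The 5 endothelial markers summed to 1.01 to 2.18 CPM, and the 4 epithelial markers, which came down to Cdh1, to 4.47 to 4.53 CPM in vehicle and 0.632 to 0.873 CPM in TCM. The part of these marker levels in the results below was not tested.

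The matricellular genes covered a wide range of levels in this line. Together they held from 2.62% of all counts in CCM replicate 2 to 4.09% in TCM replicate 2. Compared per transcript length, as reads per 1000 bases of exon and per 1000000 counts of the library (RPKM), Fn1 (mean of the 8 libraries 1394 RPKM), Thbs1 (1352 RPKM) and Sparc (1284 RPKM) stood far above the rest. Fn1 held the highest or second-highest count of all genes in every library. Postn (148 RPKM), Thbs2 (84.2 RPKM) and Tnc (75.8 RPKM) followed, then Tinagl1 (19.9 RPKM), Angptl2 (10.4 RPKM) and Thbs3 (9.43 RPKM). Spp1 was close to the floor at 0.336 RPKM. Levels given below as CPM are scaled by TMM-scaled library totals and not by transcript length, and are compared within a gene.

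**Figure D1:**
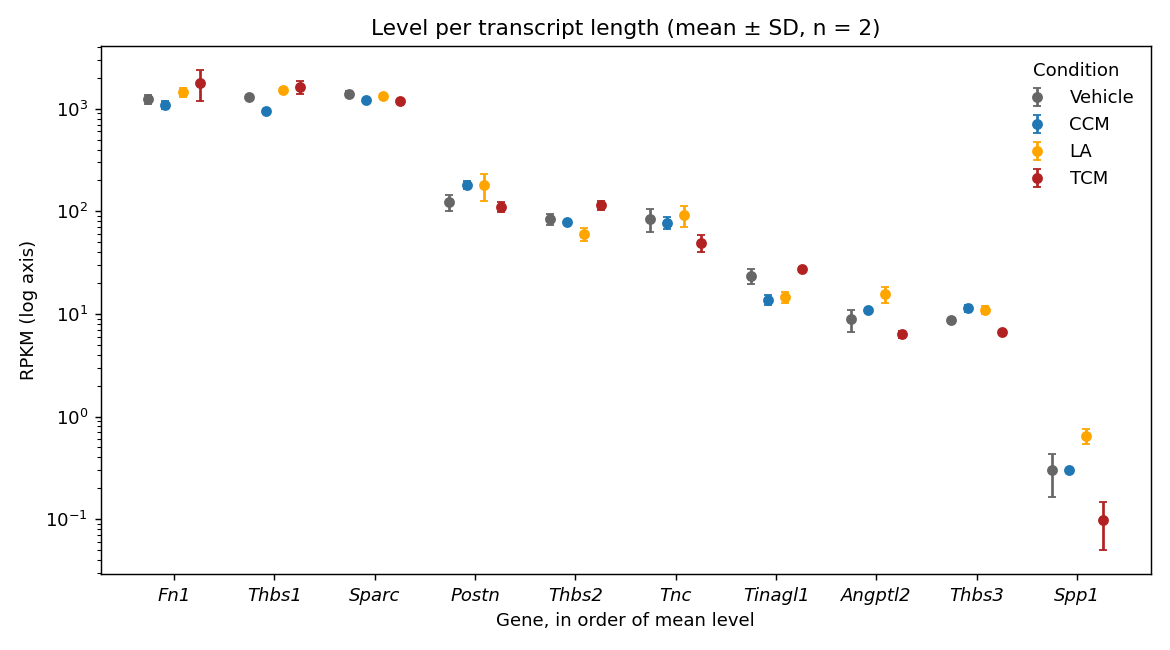
Levels of the 10 genes per transcript length, as mean RPKM on a log axis with SD over 2 libraries for each condition, in order of their mean over the 8 libraries. Fn1, Thbs1 and Sparc have means of 1394, 1352 and 1284 RPKM and stand above the others in all 4 conditions, and Spp1, at a mean of 0.336 RPKM, stands below them.

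In TCM compared with CCM, Fn1, Tinagl1, Thbs1 and Thbs2 rose and Thbs3, Tnc, Postn and Angptl2 fell, whereas Sparc did not pass the test. This was 8 of 9 tested genes, beside 19.1% of all 12137 tested genes called in either direction (edgeR quasi-likelihood test, Benjamini-Hochberg adjusted P under 0.05 and log2 fold change, log2 FC, beyond 0.39). The median absolute log2 FC of the 9 genes was 0.71, beside 0.23 over all genes tested. In LA compared with vehicle, 2 of 9 genes passed, Angptl2 upward and Tinagl1 downward, beside 2.55% of all genes, and the median absolute log2 FC was 0.31 beside 0.14. The TCM effect differed from the LA effect for 5 of 9 genes, beside 10.4% of all genes. The genes, and the related lists below, were chosen with earlier results of these data known. The shares and medians beside all genes are therefore descriptions and do not test the set. In bulk RNA, fewer cells of a type and less RNA per cell cannot be told apart.

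The starts of 4 genes with opposite signs in TCM and LA are shown for reference. Tinagl1 and Thbs2 had positive log2 FC in TCM and negative ones in LA, whereas Postn and Angptl2 had the reverse. The LA values of Thbs2 and Postn did not pass the test. Thbs3 and Tnc also had negative log2 FC in TCM and positive ones in LA, and their windows are not shown. Each is the 250 bases before the RefSeq start on GRCm38.p6, written 5' to 3' on the strand of the gene, with matches to 6 short motifs in capitals. RefSeq windows were matched for 8 of the 10 genes, that is, not for Fn1 and Thbs1, and for genes with several starts the window nearest to the annotated gene start was used.
Tinagl1, chr4:130175123-130175372, minus strand: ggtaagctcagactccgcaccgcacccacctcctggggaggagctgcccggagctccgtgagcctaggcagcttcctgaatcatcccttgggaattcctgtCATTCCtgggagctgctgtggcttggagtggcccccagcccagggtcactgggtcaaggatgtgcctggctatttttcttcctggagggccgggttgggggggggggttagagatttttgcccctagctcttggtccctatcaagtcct
Thbs2, chr17:14694263-14694512, minus strand: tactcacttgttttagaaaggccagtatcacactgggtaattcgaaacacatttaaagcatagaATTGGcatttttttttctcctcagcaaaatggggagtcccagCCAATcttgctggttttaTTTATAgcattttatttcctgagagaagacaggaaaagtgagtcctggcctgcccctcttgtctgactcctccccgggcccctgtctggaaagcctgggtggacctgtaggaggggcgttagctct
Postn, chr3:54360857-54361106, plus strand: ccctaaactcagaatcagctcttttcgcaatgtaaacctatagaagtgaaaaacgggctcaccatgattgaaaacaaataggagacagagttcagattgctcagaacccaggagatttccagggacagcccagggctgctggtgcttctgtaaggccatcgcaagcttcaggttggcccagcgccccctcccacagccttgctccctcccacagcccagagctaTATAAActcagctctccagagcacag
Angptl2, chr2:33215711-33215960, plus strand: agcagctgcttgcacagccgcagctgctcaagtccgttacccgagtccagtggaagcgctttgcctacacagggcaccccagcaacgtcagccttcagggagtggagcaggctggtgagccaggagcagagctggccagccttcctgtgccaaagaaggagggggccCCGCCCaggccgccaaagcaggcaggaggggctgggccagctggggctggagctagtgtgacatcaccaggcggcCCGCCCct

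The motifs searched on both strands were the TATA box TATAAA, the CCAAT box CCAAT, the GC box GGGCGG, the AP-1 site TGACTCA, the cAMP response element TGACGTCA and the TEAD core GGAATG, and no 2 matches overlapped in these windows. Postn had a TATAAA whose first base lay 26 bases before the start, a motif held by 12.4% of all 32851 windows of this length, and Thbs2 had the same letters on the other strand 126 bases before the start. Thbs2 also had 2 CCAAT box matches, at 186 and 144 bases, a motif held by 33.8% of windows. Angptl2 had 2 GC box matches, at 83 and 8 bases, a motif held by 32.7% of windows. Tinagl1 had none of these but a TEAD core match on the other strand at 149 bases, a motif held by 12.6% of windows. None of the 8 windows held the AP-1 or the cAMP response letters, which 4.46% and 1.55% of windows held. The GC content was 46.8% for Thbs2, 52.0% for Postn, 60.8% for Tinagl1 and 66.8% for Angptl2, with a median of 52.4% over all windows. These matches are descriptions of the letters, and nothing about binding was measured.

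Among the adhesive proteins, Fn1 encodes fibronectin, the glycoprotein that links integrins to collagen and other matrix and on which fibers are laid down. It lies on GRCm38 at chr1:71585520-71653200 on the minus strand and overlaps Apol7d on the other strand. Fn1 measured 13536 and 15525 CPM in vehicle, 13610 and 12007 CPM in CCM, 15683 and 18139 CPM in LA, and 15940 and 25843 CPM in TCM. Both TCM libraries lay above both CCM libraries, but TCM replicate 1 lay within the range of the LA libraries and TCM replicate 2 alone far above all others. Fn1 was 1.63-fold higher in TCM than in CCM (log2 FC 0.71, SE 0.20, adjusted P = 0.0262 by edgeR). In LA over vehicle the log2 FC was 0.22 (95% interval -0.21 to 0.65, adjusted P = 0.711 by edgeR). The TCM call rested on TCM replicate 2, without which the log2 FC was 0.32 (adjusted P = 0.0796 by edgeR), and it was also lost without CCM replicate 1 (0.0922) or CCM replicate 2 (0.172), without scaling factors (0.0508) and in a fit of these 4 libraries alone (0.0923, all adjusted P).

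Tinagl1 encodes a secreted glycoprotein related to tubulointerstitial nephritis antigen, also called lipocalin-7, known to bind integrins. The gene lies at chr4:130164454-130175122 on the minus strand. Its level was 115 and 90.3 CPM in vehicle, 55.5 and 64.8 CPM in CCM, 69.0 and 58.0 CPM in LA, and 124 and 117 CPM in TCM. The conditions fell into a high pair, vehicle and TCM, and a low pair, CCM and LA, without overlap between the pairs. Tinagl1 was 2.01-fold higher in TCM than in CCM (log2 FC 1.01, SE 0.14, adjusted P = 0.000465 by edgeR), the largest increase among the 9 genes, and this call held in all 8 fits that each left out 1 library. It fell by 0.70 on the log2 scale in LA compared with vehicle (SE 0.14, adjusted P = 0.0263 by edgeR), which was lost without vehicle replicate 1 (adjusted P = 0.218), LA replicate 1 (0.0742) or LA replicate 2 (0.206). Tinagl1 was also lower in CCM than in vehicle (log2 FC -0.77, SE 0.14, adjusted P = 0.0287 by edgeR), as the 1 gene of 9 called there, beside 1.3% of all genes. Without vehicle replicate 1 or 2 or CCM replicate 1 or 2, the adjusted P of that comparison was 0.214, 0.166, 0.345 and 0.134.

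Thrombospondins are multimeric calcium-binding glycoproteins. Thbs1 and Thbs2 encode the trimeric members, which bind CD47 and CD36 and inhibit angiogenesis, and Thbs1 is in addition a known activator of latent TGFβ. Thbs3 encodes a pentameric member known mainly from cartilage and bone. The pentameric relatives Thbs4 and Comp had 0 and 2 to 9 counts, and no 30-base stretch was shared between the transcripts of these 5 genes.

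Thbs1, at chr2:118111876-118127133 on the plus strand with the noncoding Gm29233 on the other, measured 7619 and 8227 CPM in vehicle, 5767 and 5879 CPM in CCM, 9607 and 8977 CPM in LA, and 8785 and 10819 CPM in TCM. CCM was the lowest condition and LA and TCM overlapped above vehicle. Thbs1 was 1.68-fold higher in TCM than in CCM (log2 FC 0.75, SE 0.13, adjusted P = 0.00175 by edgeR), and the call held in all 8 fits without 1 library. In LA over vehicle the log2 FC was 0.23 (95% interval -0.05 to 0.51, adjusted P = 0.464 by edgeR). CCM over vehicle gave a log2 FC of -0.44 that did not pass the test (adjusted P = 0.124 by edgeR, 0.0172 by DESeq2) and was called without TCM replicate 1 (0.00905) or TCM replicate 2 (0.00874).

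Thbs2, at chr17:14665500-14694235 on the minus strand, measured 533 and 633 CPM in vehicle, 563 and 536 CPM in CCM, 379 and 463 CPM in LA, and 750 and 859 CPM in TCM. TCM lay above all other libraries and LA below them, whereas vehicle and CCM overlapped. Thbs2 was 1.46-fold higher in TCM than in CCM (log2 FC 0.55, SE 0.13, adjusted P = 0.0117 by edgeR), a call lost without CCM replicate 1 (0.0721) or CCM replicate 2 (0.101). The log2 FC in LA over vehicle was -0.47 (95% interval -0.75 to -0.18) and did not pass the test (adjusted P = 0.0950 by edgeR), whereas DESeq2 gave an adjusted P of 0.0277, and the edgeR fits without TCM replicate 1 or 2 gave 0.0231 and 0.0226.

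Thbs3, at chr3:89215180-89226837 on the plus strand, overlaps the protein-coding gene Mtx1 on the other strand. It measured 41.9 and 42.9 CPM in vehicle, 57.7 and 51.4 CPM in CCM, 56.1 and 49.7 CPM in LA, and 31.3 and 32.7 CPM in TCM. TCM lay below every other library, and CCM and LA overlapped at the top. Thbs3 fell by 0.77 on the log2 scale in TCM compared with CCM (SE 0.11, adjusted P = 0.000698 by edgeR) and kept this call in all 8 fits without 1 library. The log2 FC of LA over vehicle was 0.31 (95% interval 0.07 to 0.55, adjusted P = 0.201 by edgeR).

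The balance of the 2 trimeric thrombospondins shifted most in LA. The ratio of Thbs1 to Thbs2, both in RPKM, was 16.5 and 15.0 in vehicle, 11.8 and 12.6 in CCM, 29.2 and 22.3 in LA, and 13.5 and 14.5 in TCM. Both LA libraries lay above all others, and the ratio itself was not tested.

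**Figure D2:**
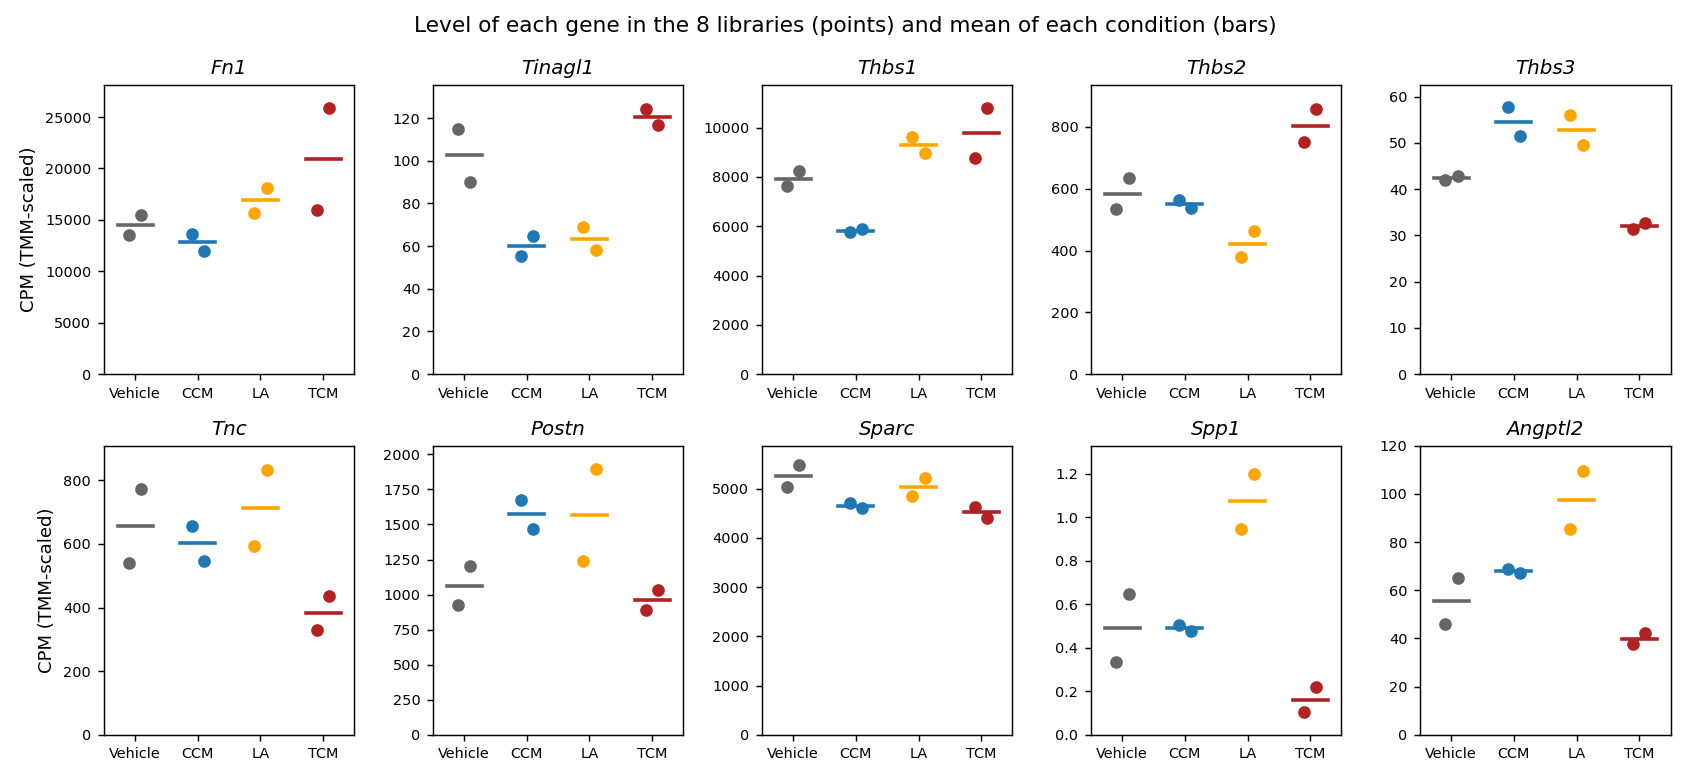
Level of each of the 10 genes in every library, as TMM-scaled CPM on an axis that starts at 0, with the 2 libraries of a condition as points and their mean as a bar. Tinagl1 is high in vehicle and TCM, Thbs2 is highest in TCM, Angptl2 and Thbs3 are lowest in TCM, and the TCM libraries of Fn1 stand apart from each other at 15940 and 25843 CPM.

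Tnc and Postn encode tenascin-C and periostin, proteins of tissue repair and tumor stroma that bind fibronectin and, for periostin, type I collagen. Tnc, at chr4:63959785-64047015 on the minus strand with 8030451A03Rik on the other, measured 540 and 772 CPM in vehicle, 657 and 548 CPM in CCM, 594 and 833 CPM in LA, and 331 and 437 CPM in TCM. TCM lay below all other libraries, which overlapped with each other. Tnc fell by 0.65 on the log2 scale in TCM compared with CCM (SE 0.21, adjusted P = 0.0442 by edgeR), with a log2 FC in LA over vehicle of 0.12 (95% interval -0.33 to 0.57, adjusted P = 0.870 by edgeR). Leaving out CCM replicate 1 or 2 or TCM replicate 1 or 2 raised the adjusted P of the TCM effect to 0.255, 0.0748, 0.394 and 0.133.

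Postn, at chr3:54361109-54391037 on the plus strand, measured 926 and 1201 CPM in vehicle, 1673 and 1470 CPM in CCM, 1241 and 1895 CPM in LA, and 888 and 1035 CPM in TCM. Vehicle and TCM overlapped at the low end, and CCM and LA overlapped above them. Postn fell by 0.71 on the log2 scale in TCM compared with CCM (SE 0.19, adjusted P = 0.0226 by edgeR). In LA over vehicle the log2 FC was 0.56 (95% interval 0.14 to 0.98) and did not pass the test (adjusted P = 0.185 by edgeR, 0.0564 by DESeq2). Without a low-count filter edgeR called it (adjusted P = 8.21e-05). CCM over vehicle had a log2 FC of 0.56 too and did not pass (adjusted P = 0.204 by edgeR). It was called by edgeR without a low-count filter (0.000299) and in a fit of the vehicle and CCM libraries alone (0.00661). Without CCM replicate 1 or 2 or TCM replicate 1 or 2, the adjusted P of the TCM effect was 0.150, 0.0575, 0.250 and 0.125.

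Sparc encodes osteonectin, a collagen-binding protein that counters cell spreading, and Spp1 encodes osteopontin, a secreted ligand of integrins and CD44. Sparc, at chr11:55394500-55423183 on the minus strand, measured 5025 and 5487 CPM in vehicle, 4705 and 4602 CPM in CCM, 4843 and 5209 CPM in LA, and 4633 and 4401 CPM in TCM. The conditions lay close together, and Sparc was called in none of the 7 comparisons. Its log2 FC was -0.04 in TCM over CCM (95% interval -0.28 to 0.20, adjusted P = 0.817 by edgeR) and -0.06 in LA over vehicle (95% interval -0.30 to 0.17, adjusted P = 0.870 by edgeR).

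Spp1, at chr5:104435118-104441050 on the plus strand, where the annotation has Gm42793 on the same strand, had 3 and 7 counts in vehicle, 6 and 5 in CCM, 8 and 17 in LA, and 1 and 2 in TCM. Both TCM libraries were under the floor, and only 1 library reached 10 counts, so Spp1 stayed out of the tests. Over the 2 libraries of a condition, the ratio of TCM to CCM was 0.326 (95% counting interval 0.0585 to 1.24, 3 against 11 counts) and that of LA to vehicle was 2.18 (1.01 to 5.09, 25 against 10 counts). The ratio of LA to TCM was 6.87 (2.10 to 35.5, 25 against 3 counts), and with no filter on low counts this was the 1 of the 7 comparisons that passed for Spp1 (adjusted P = 0.00758 by edgeR). These exact intervals cover counting error only and leave out the spread between libraries.

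Angptl2 encodes angiopoietin-like 2, a secreted glycoprotein that binds integrin α5β1 and the LILRB2 and PirB receptors. The gene, at chr2:33216069-33247717 on the plus strand with Ralgps1 on the other, measured 46.1 and 64.9 CPM in vehicle, 68.8 and 67.2 CPM in CCM, 85.5 and 110 CPM in LA, and 37.5 and 42.2 CPM in TCM. The conditions did not overlap, with LA highest, then CCM, vehicle and TCM. Angptl2 fell by 0.77 on the log2 scale in TCM compared with CCM (SE 0.17, adjusted P = 0.00759 by edgeR) and was 1.76-fold higher in LA than in vehicle (log2 FC 0.81, SE 0.16, adjusted P = 0.0267 by edgeR). The TCM call was lost without TCM replicate 1 (adjusted P = 0.0804). The LA call was lost without vehicle replicate 1 (0.199) or LA replicate 2 (0.206) and in a fit of the vehicle and LA libraries alone (0.104).

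**Figure D3:**
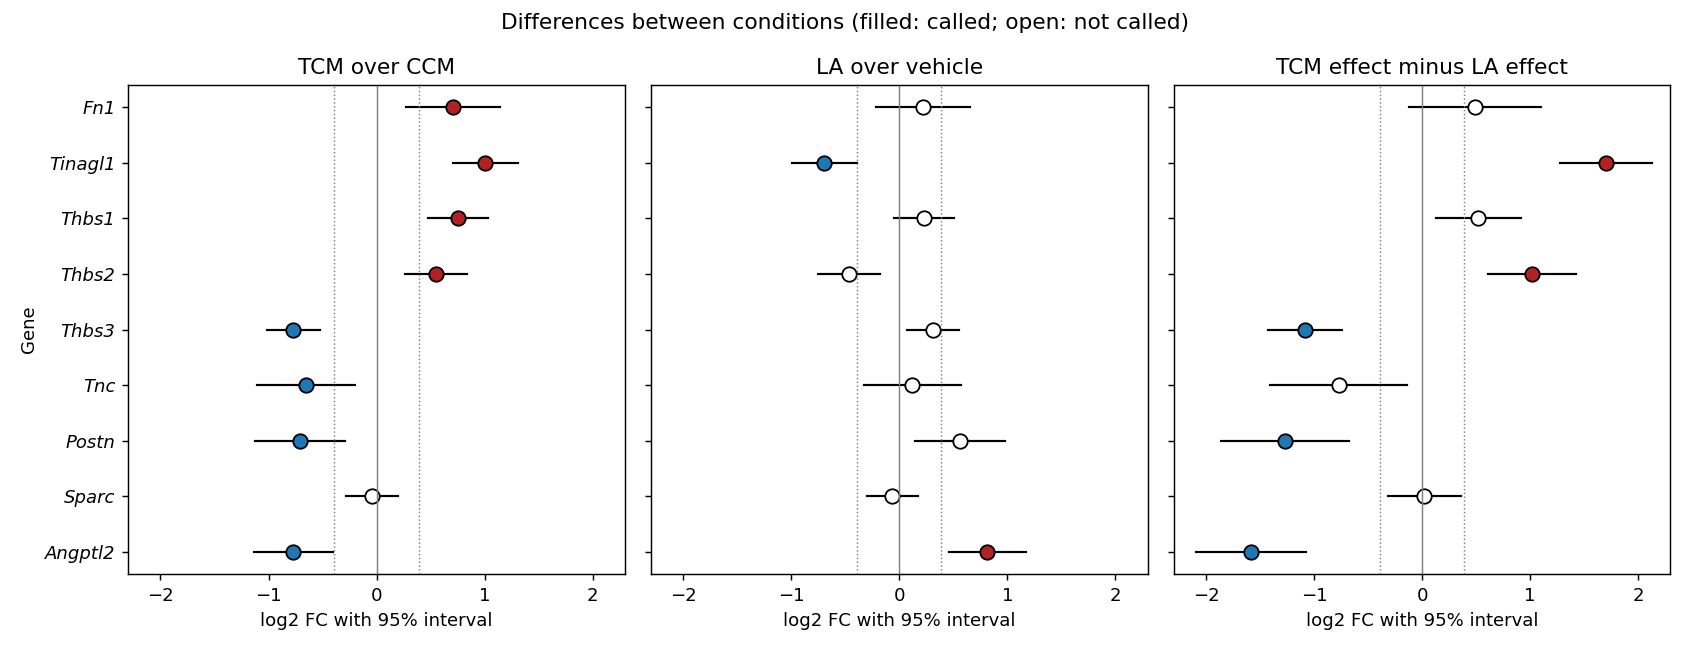
log2 FC with its 95% interval for the 9 tested genes in TCM over CCM, in LA over vehicle, and for the difference between these effects, with filled points for called genes (red higher, blue lower) and dotted lines at the fold threshold of 0.39. For TCM over CCM 4 genes lie on each side, and Sparc lies at -0.04.

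The difference between the TCM effect and the LA effect was tested for each gene in the same fit. Tinagl1 had the largest difference (1.70 on the log2 scale, SE 0.19, adjusted P = 0.000261 by edgeR), followed among the positive ones by Thbs2 (1.02, SE 0.18, adjusted P = 0.00477). Angptl2 (-1.58, SE 0.23, adjusted P = 0.00132), Postn (-1.27, SE 0.27, adjusted P = 0.0123) and Thbs3 (-1.08, SE 0.16, adjusted P = 0.00122) had negative differences. In each of these 5 genes the log2 FC had opposite signs in TCM and in LA, although only Tinagl1 and Angptl2 passed the test on both sides. Thbs1 (0.52, adjusted P = 0.0922), Fn1 (0.49, adjusted P = 0.316) and Tnc (-0.77, adjusted P = 0.125) did not pass by edgeR, and the value of Sparc was 0.02. The calls of Tinagl1, Thbs2, Angptl2 and Thbs3 held in all 8 fits without 1 library, and that of Postn was lost without vehicle replicate 1 (0.0642), CCM replicate 1 (0.0588), TCM replicate 1 (0.148) or TCM replicate 2 (0.0769). Without TCM replicate 1, Thbs1 (0.66, adjusted P = 0.00453) and Fn1 (0.79, adjusted P = 0.00549) were called too, and DESeq2 called Thbs1 (adjusted P = 0.0282) and Tnc (adjusted P = 0.0498) with all libraries.

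The comparisons across the 2 kinds of medium, conditioned and unconditioned, share libraries with those above and are given as values side by side. In TCM over vehicle 3 of 9 genes passed, beside 17.5% of all genes, namely Thbs2 upward (log2 FC 0.46, adjusted P = 0.0284) and Tnc (-0.77, adjusted P = 0.0227) and Thbs3 (-0.41, adjusted P = 0.0290) downward by edgeR. DESeq2 did not call Thbs3 there (adjusted P = 0.0609) and called Fn1 instead (log2 FC 0.52, adjusted P = 0.0245). In an edgeR fit of the vehicle and TCM libraries alone, Thbs2 (adjusted P = 0.0694) and Thbs3 (0.0793) were lost. Without TMM factors, edgeR lost Thbs2 (0.0623) and called Angptl2 lower (log2 FC -0.59, 0.0238). Tinagl1 (0.24, adjusted P = 0.253) and Postn (-0.15, adjusted P = 0.638), both called in TCM over CCM, were not called against vehicle. In LA over CCM, Thbs1 was called (log2 FC 0.67, adjusted P = 0.0411 by edgeR) as 1 of 9, beside 0.626% of all genes. In TCM over LA 6 of 9 passed, beside 16.1% of all genes, with Tinagl1 (0.93) and Thbs2 (0.93) higher and Angptl2 (-1.30), Tnc (-0.89), Thbs3 (-0.72) and Postn (-0.71) lower in TCM.

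In TCM over LA the calls of Tinagl1, Thbs2, Angptl2 and Thbs3 held in all 8 fits without 1 library. The other calls of these comparisons depended on single libraries, and the values that follow are adjusted P by edgeR in fits without the named library. In TCM over vehicle, Thbs2 was lost without vehicle replicate 1 (0.229), vehicle replicate 2 (0.0539), CCM replicate 1 (0.0554), CCM replicate 2 (0.0543) or TCM replicate 2 (0.0526), Thbs3 without vehicle replicate 1 (0.108), vehicle replicate 2 (0.147) or TCM replicate 1 (0.0561), and Tnc without vehicle replicate 2 (0.219), TCM replicate 1 (0.307) or TCM replicate 2 (0.101). In LA over CCM, Thbs1 was lost without any 1 of the vehicle, CCM or LA libraries, with values of 0.0882 and 0.0879 without vehicle replicates 1 and 2, 0.425 and 0.387 without CCM replicates 1 and 2, and 0.239 and 0.143 without LA replicates 1 and 2. In TCM over LA, Tnc and Postn were lost without LA replicate 2 (0.125 and 0.257), TCM replicate 1 (0.256 and 0.293) or TCM replicate 2 (0.0757 and 0.123). Without TCM replicate 1, Fn1 (log2 FC 0.83, 0.000487) and Thbs1 (0.45, 0.00809) were called higher in TCM than in vehicle, and Fn1 was called higher than in LA (0.61, 0.00486). Angptl2 was called lower in TCM than in vehicle without vehicle replicate 1 (log2 FC -0.70, 0.0265).

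When the 4 conditions were ordered by level within each gene, 4 of 27 neighboring pairs differed past the test. These were TCM above vehicle for Thbs2, vehicle above TCM for Thbs3, CCM above TCM for Tnc, and vehicle above LA for Tinagl1. The other 23 pairs did not pass, so that most steps in the orders shown by the plot of levels by library were not resolved. Neighbors were chosen by sorting the same means that were tested, and are the closest conditions by construction. The same count was not made over all genes, so it says nothing particular to these genes.

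Other genes of the same system were counted from lists of related matricellular proteins, of receptors and of adhesion adaptors. Of 36 other matricellular proteins 19 were tested, and in TCM over CCM 7 rose and 3 fell, beside 19.1% of all genes called, with a median log2 FC of 0.42 beside 0.00 over all genes. Abi3bp, which encodes a matrix protein that binds the adaptor ABI3, rose from 23.4 ± 0.400 to 85.9 ± 13.3 CPM (mean ± SD, n = 2, log2 FC 1.87, SE 0.15, adjusted P = 2.29e-05 by edgeR). Mfge8, a secreted bridge between integrins and phosphatidylserine, rose from 150 to 245 CPM (log2 FC 0.71, adjusted P = 0.000441 by edgeR). In vehicle Mfge8 measured 188 CPM. TCM over vehicle was not called for it, since its log2 FC of 0.38 lay under the fold threshold (adjusted P = 0.0167 by edgeR). CCM over vehicle did not pass (log2 FC -0.32, adjusted P = 0.138 by edgeR). Dmp1, a bone matrix phosphoprotein, had 18 and 19 counts in CCM and 1 and 1 in TCM, under the floor, which made it at least 5.18-fold lower against a floor of 3 counts per library. In vehicle Dmp1 averaged only 0.389 CPM, close to the floor, and TCM over vehicle did not pass (adjusted P = 0.176 by edgeR). CCM over vehicle had a log2 FC of 2.01 and did not pass either (adjusted P = 0.0611 by edgeR). In LA over vehicle 1 of the 19 was called, beside 2.55% of all genes, namely Abi3bp at a log2 FC of 0.99 (SE 0.15, adjusted P = 0.00813 by edgeR).

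Of 26 receptors 22 were tested, and in TCM over CCM 5 rose and 3 fell, beside 19.1% of all genes called, with a median log2 FC of 0.06. Ptprz1, a receptor tyrosine phosphatase that binds tenascin-C, rose from 70.3 to 154 CPM (log2 FC 1.13, adjusted P = 0.000183 by edgeR). Itga3, the α3 chain of a laminin-binding integrin, rose from 9.69 to 25.1 CPM (log2 FC 1.38, adjusted P = 0.000680 by edgeR). In vehicle, however, Itga3 measured 23.1 CPM, and TCM over vehicle did not pass (log2 FC 0.12, adjusted P = 0.684 by edgeR). CCM was called lower than vehicle for Itga3 (log2 FC -1.26, adjusted P = 0.0251 by edgeR). Itga8, the α8 chain of an integrin for fibronectin, tenascin-C and osteopontin, fell by 3.09 on the log2 scale, from 6.01 to 0.700 CPM (adjusted P = 0.00103 by edgeR). In LA over vehicle 3 of 22 were called, beside 2.55% of all genes. Ptprz1 rose in LA too (log2 FC 1.31, adjusted P = 0.000734), whereas Itga9, the α9 chain that pairs with integrin β1 and binds tenascin-C and osteopontin, and Itgb5, the β chain of integrin αvβ5, fell (-0.72, adjusted P = 0.0219, and -0.45, adjusted P = 0.0293, by edgeR). Cd36, a thrombospondin receptor, and Pirb, a receptor for Angptl2, had 0 counts in all 8 libraries, which allows up to 3 counts per library.

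Of 21 adhesion adaptors 19 were tested, and in TCM over CCM 3 rose and 0 fell, that is 15.8% of those tested and no larger a share than the 19.1% of all genes called, with a median log2 FC of 0.09. Zyx, which encodes the focal adhesion protein zyxin, rose from 885 to 2385 CPM (log2 FC 1.43, adjusted P = 3.49e-05 by edgeR). Parvb, encoding β-parvin of the integrin-linked kinase complex, and Tns1, encoding tensin 1, rose by log2 FC of 0.94 (adjusted P = 0.000639) and 0.83 (adjusted P = 0.00648 by edgeR). Parvb was also the 1 of 19 called in LA over vehicle, beside 2.55% of all genes (log2 FC 0.61, adjusted P = 0.0491 by edgeR).

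**Figure D4:**
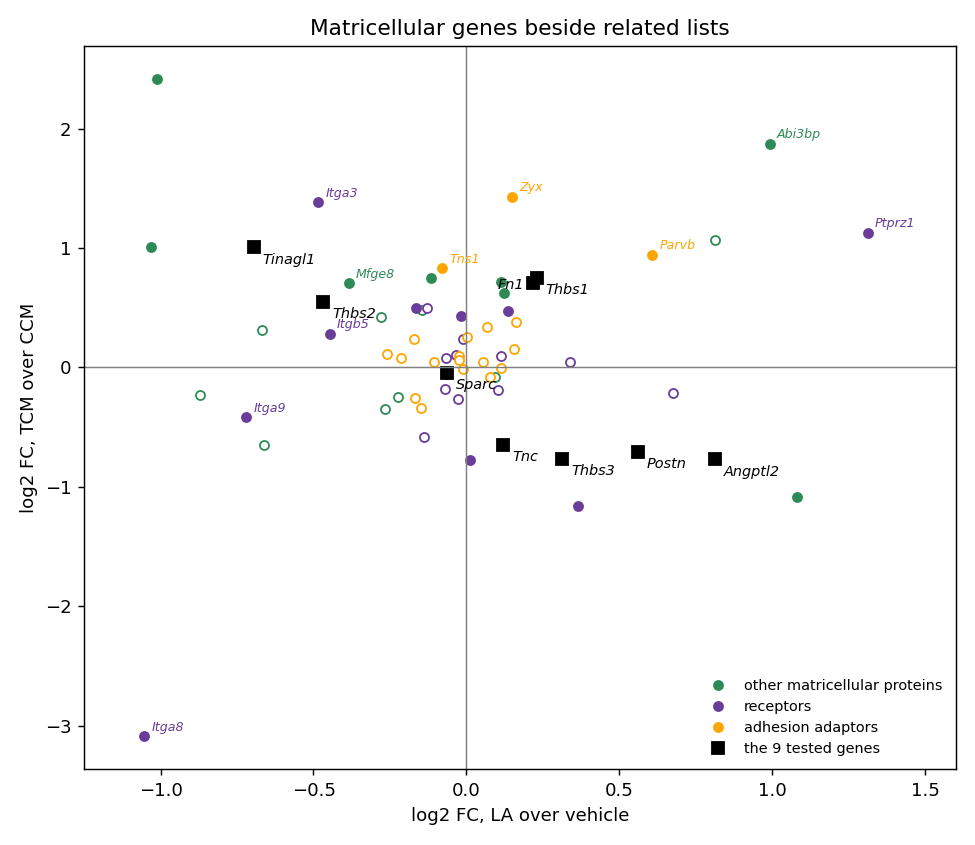
log2 FC in LA over vehicle (horizontal axis) and in TCM over CCM (vertical axis), which share no library, for the 9 tested genes (black squares) and for related lists (circles, filled when called in either comparison), with names for those given in the text. Tinagl1 and Thbs2 lie at upper left, and Angptl2, Postn, Thbs3 and Tnc at lower right. Dmp1 and Tgfbi, whose TCM libraries were under the floor, are not drawn.

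For each of the 9 genes, the other tested gene with the most similar profile was found by the Euclidean distance between mean-centered log2 CPM over the 8 libraries. The nearest to Fn1 was Htt, which encodes huntingtin (distance 0.19), and the nearest to Tinagl1 was Pdp1, a phosphatase that activates pyruvate dehydrogenase (0.31). For the thrombospondins they were Dusp8, a MAP kinase phosphatase, for Thbs1 (0.25), Apcdd1, a Wnt inhibitor, for Thbs2 (0.35) and Ncapd3, a condensin subunit, for Thbs3 (0.15). For Tnc it was the protocadherin Pcdh18 (0.28), for Postn the glutathione synthesis gene Gclc (0.32), for Sparc the mitochondrial fusion gene Mfn1 (0.11) and for Angptl2 the sarcoglycan Sgcd (0.26). Pearson's r over the 8 libraries, which share conditions and depth with the gene itself, ranged from 0.935 for Thbs2 to 0.985 for Thbs3. Each partner was picked as the nearest of all tested genes, so a high r follows from the choice and shows no link. Distances also depend on the length of the gene's own mean-centered profile, from 0.277 for the nearly flat Sparc to 1.39 for Angptl2. Among the 9 genes themselves, Fn1 and Thbs1 were nearest to each other (distance 0.51, r = 0.829), as were Thbs3 and Postn (0.68, r = 0.764). Tinagl1 and Thbs2 were too (0.95, r = 0.674), at a distance close to the own profile length of Thbs2 (0.99). Not mutually, Angptl2 was nearest to Postn (0.71, r = 0.867), Tnc to Angptl2 (0.75, r = 0.843) and Sparc to Thbs3 (0.85, r = 0.267).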

How the data were processed

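RNA of 1 FRC line was sequenced in 8 libraries, 2 for each of vehicle, CCM, LA and TCM, assigned from the sample labels. The authors made directional poly(A) libraries, aligned reads to GRCm38 with STAR 2.7.0a, counted them per gene with featureCounts (Subread 2.0.1) and tested with DESeq2 1.32.0, as the study's methods and processing notes state. Whether counting used strand is not given in the sources used here, so reads of overlapping genes on opposite strands may be mixed. The deposited values are raw counts, 1 whole number per gene and library. Another deposited table, named for normalized counts, held the same counts (100% of its values for 12137 genes) and was treated as counts. No column was left unused (0 columns).

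The genes and lists were chosen with earlier results of these data known. A gene was tested when 3 or more libraries had 10 or more counts (12137 genes), in R 4.3.3 with edgeR 4.0.16: TMM scaling, a mean per condition over all 8 libraries, robust quasi-likelihood F tests and Benjamini-Hochberg adjustment over all tested genes. A gene was called at adjusted P under 0.05 and log2 FC beyond 0.39, the threshold in the study's methods. SE is the log2 FC divided by the square root of F, and 95% intervals use the moderated degrees of freedom. CPM use TMM-scaled totals, and RPKM divide CPM by the exon length of GENCODE M21 on GRCm38, which also gives positions and may differ from the authors' annotation. Total counts were 8232889 to 14107964, so 3 counts equal 0.212 to 0.355 CPM. No molecular identifiers were used, so floors and counting intervals cover counting error only. Named were the 10 genes, up to 3 genes with the smallest adjusted P among those called from each related list in TCM over CCM and in LA over vehicle, and the nearest gene in profile of each tested gene. Receptors and relatives at or near 0 counts (Cd36, Pirb, Thbs4, Comp) were named after their values were seen. The promoters shown and the motifs were also chosen after values were seen. Alternatives were DESeq2 1.42.0, DESeq2 size factors and library totals in place of TMM, other count filters and fold thresholds, only the libraries compared, a replicate block, and leaving out each library. The edgeR step was tested on simulated data. Another marker of the leukocyte list is not reported here.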

Additional observations from a re-analysis of the deposited data

Results flagged for a closer look

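The TCM effect (TCM over CCM) and the LA effect (LA over vehicle) differed by the test of the difference itself for 5 of the 9 tested genes. On the log2 scale, the TCM effect minus the LA effect was 1.70 for Tinagl1, 1.02 for Thbs2, -1.08 for Thbs3, -1.27 for Postn and -1.58 for Angptl2. For Tinagl1 the TCM effect was 1.01 and the LA effect -0.70, and for Angptl2 they were -0.77 and 0.81, each past the test by edgeR. For Thbs2 (0.55 and -0.47), Thbs3 (-0.77 and 0.31) and Postn (-0.71 and 0.56) the TCM effect passed and the LA effect did not. CCM and vehicle also differ as media, 1 conditioned by FRCs and 1 not, so the reference of each effect differs as well. With 2 libraries per condition, no search for single outlying libraries was made.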

How the results depend on the processing

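Over 999 values of single genes under alternatives, 901 stayed called or stayed uncalled, 58 lost the call, 40 gained one and 0 called values changed sign. Sign changes of uncalled values were not counted, and some occurred. For Tnc in LA over vehicle, the log2 FC ran from -0.14 to 0.40 over the fits that each left out 1 library. The number of the 9 genes called was 8 for TCM over CCM, 2 for LA over vehicle, 5 for the difference between these effects, 1 for CCM over vehicle, 3 for TCM over vehicle, 1 for LA over CCM and 6 for TCM over LA. Leaving out 1 library at a time gave 4 to 8, 0 to 3, 4 to 6, 0 to 2, 0 to 3, 0 to 1 and 4 to 6 in the same order, where a condition with 1 library left is assumed to vary like the others. DESeq2 called 2 in CCM over vehicle. Without a low-count filter 4 were called in LA over vehicle, 8 for the difference, 3 in CCM over vehicle, 5 in TCM over vehicle and 3 in LA over CCM. With 10 counts required in every library 0 were called in LA over CCM. With only the libraries compared, 1 was called in LA over vehicle, 3 in CCM over vehicle, 1 in TCM over vehicle and 2 in LA over CCM. Beyond a log2 FC of 0.68, 1 was called in TCM over vehicle and 0 in LA over CCM. Beyond 1, 1 was called in TCM over CCM (Tinagl1) and 1 in TCM over LA, and 0 in LA over vehicle, CCM over vehicle, TCM over vehicle and LA over CCM. The cause of these shifts was not tested, except that a higher fold threshold leaves fewer genes by construction. The replicate numbers were not taken to pair the samples, since same-numbered deviations from the condition means correlated at 0.106 to 0.353 among vehicle, LA and TCM but at -0.242 to -0.0406 between these and CCM. The replicate block gave 8, 2, 5, 1, 4, 1 and 6 called genes, with Angptl2 added in TCM over vehicle (log2 FC -0.47, adjusted P = 0.0301 by edgeR), and changed no other call of the 9 genes. With the 2 CCM numbers crossed, which was tried after seeing the data, the block called 8, 4, 7, 3, 5, 2 and 6. Without TMM factors the median log2 FC of all genes shifted by -0.14 in TCM over CCM and in the difference between effects, by -0.10 in TCM over vehicle and by -0.11 in TCM over LA.

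Counts over all genes also moved by more than 1.5 times. For LA over vehicle, 310 genes were called, and 656 without a filter, 176 beyond 0.68, 86 beyond 1 and 596 with the crossed block. For CCM over vehicle, 158 became 584, 84, 19 and 457 in that order and 679 with only the libraries compared. For LA over CCM, 76 became 147 by DESeq2, 410 without a filter, 321 with only the libraries compared, 29 beyond 1 and 283 with the crossed block. Beyond 0.68 and beyond 1, TCM over CCM went from 2314 to 1331 and 760, TCM over vehicle from 2121 to 1199 and 668, and TCM over LA from 1955 to 1126 and 623. The difference between effects went from 1268 to 634 beyond 1 and 1938 with the crossed block. Leaving out 1 library gave 1184 to 2863 genes for TCM over CCM, 57 to 616 for LA over vehicle, 616 to 2537 for the difference, 0 to 498 for CCM over vehicle, 1120 to 2899 for TCM over vehicle, 1 to 273 for LA over CCM and 1004 to 2897 for TCM over LA. The 0 in CCM over vehicle came without vehicle replicate 1 or CCM replicate 1, where edgeR gave 1134 and 879 genes at an unadjusted P under 0.05, and no other tool was run on these subsets. Spp1 was tested only without a filter on low counts.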
